A study of Mus musculus with 2 samples.

Results

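Chemokines are small secreted proteins that steer migrating leukocytes through G-protein-coupled receptors. The CC family is named for a pair of adjacent cysteines, and its inflammatory members recruit monocytes, T cells, natural killer cells and eosinophils to sites of infection or damage. In dendritic cells and macrophages many of these genes are switched on by Toll-like receptor, NF-kB and interferon signalling, which is given here as background. The genes described are 10 mouse CC chemokines: Ccl2, Ccl7, Ccl8 and Ccl12, known as monocyte chemoattractant proteins, Ccl3, Ccl4 and Ccl5, attractants of T cells and monocytes, Ccl6 and Ccl9, ligands of CCR1, and Ccl24, a ligand of the eosinophil receptor CCR3. They were chosen by symbol, and all 10 were found, each through 1 probe set with a single symbol, among 22180 genes on the array.

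RNA came from mouse bone marrow-derived dendritic cells, called GMDC by the submitters, in 2 culture conditions with 1 array each. The treated culture received medium in which topotecan-treated E0771 cells had been kept; E0771 is a mouse mammary tumour line and topotecan inhibits topoisomerase I. The other culture is labelled control, and the labels do not give its medium, so the effects of topotecan, of tumour cell products and of medium change cannot be told apart. The labels used here name neither the mouse strain nor the time in culture, and they do not say whether animals were pooled. With 1 array per condition there is no replicate error and no test, and every difference below compares those arrays only.

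Values are taken as log2 intensity. They ran up to 13.50 with conditioned medium and up to 13.42 in the control, with medians of 4.09 with conditioned medium and 4.10 in the control. A difference is conditioned medium minus control. Genes were kept when the higher of both values reached 4.10, the median of all values, which left 13712 genes and all 10 chemokines, and genes at least 2-fold apart were counted. The only measure of technical error was the disagreement between probe sets of the same gene, a pooled SD of 0.46 on the log2 difference (787 degrees of freedom), or 0.44 at or above the 75th percentile of values (398 degrees of freedom). This SD leaves out the spread between cultures. Because brightness also depends on the probe sequence, levels are compared as amounts of RNA within a gene only, and a probe set's place among all probe sets describes its brightness on the array.

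Conditioned medium went with higher expression of the inflammatory CC chemokines, except for Ccl6, Ccl9 and Ccl24. In all, 7 of the 10 genes passed 2-fold on the higher side and 1 on the lower side, and 2 differed by less. The corresponding shares of all kept genes were 8.63% on the higher and 6.84% on the lower side. The chemokines' median log2 difference was 1.49, against -0.07 over all kept genes. Both 3-fold and 4-fold were passed by 4 of the 10, Ccl4, Ccl7, Ccl5 and Ccl8, against 4.14% of kept genes at 3-fold and 2.77% at 4-fold on the higher side. Among the 7400 genes at or above the 75th percentile, 13.6% passed 2-fold on the higher side.

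**Figure D1:**
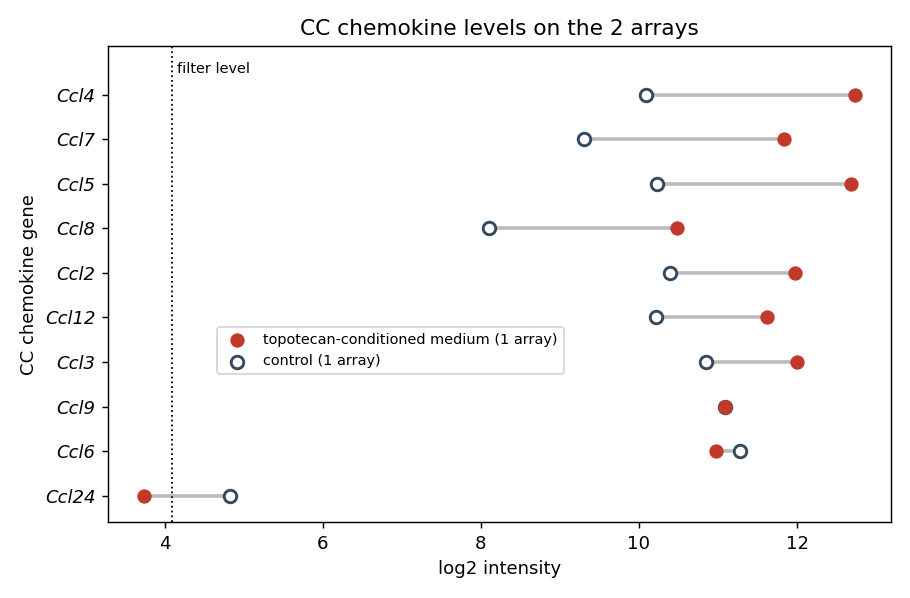
Log2 intensity (x axis) of the 10 CC chemokine genes (y axis), ordered by difference, with conditioned medium (filled points) and in the control (open points), 1 array each; the dotted line is the filter level of 4.10. The filled point lies at least 1 log2 unit to the right of the open point for 7 genes, on top of it for Ccl9, slightly left for Ccl6, and under the filter level for Ccl24.

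The 4 monocyte chemoattractant proteins were all at least 2-fold higher. Ccl7, a monocyte attractant that acts on CCR2, had a log2 intensity of 11.84 with conditioned medium and 9.30 in the control, a 5.79-fold difference. Ccl8 stood at 10.48 with conditioned medium and 8.11 in the control, which is 5.19-fold higher. These were the larger differences in the group. Ccl2, a ligand of CCR2 in the release of monocytes from bone marrow, was at 11.97 with conditioned medium and 10.40 in the control, 2.99-fold higher. Ccl12, a further mouse CCR2 ligand, measured 11.62 with conditioned medium and 10.22 in the control, 2.64-fold higher, which passed the 2-fold line by less than the SD between probe sets. All 4 were already well above the filter level in the control, where Ccl8, at the lowest percentile of the group, lay above 93.2% of all probe sets, so none of these folds rests on a value near background. Their coding sequences are related, and how far their probe sets share signal was not tested.

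Ccl4, Ccl5 and Ccl3 were also at least 2-fold higher, by unequal amounts. Ccl4, known as MIP-1beta, had the largest difference of the 10 chemokines, at 12.73 with conditioned medium and 10.09 in the control, 6.23-fold higher. Ccl5, known as RANTES and an attractant of T cells and monocytes, measured 12.68 with conditioned medium and 10.22 in the control, 5.49-fold higher. Both ended close to the top of the array, with 24 probe sets brighter than Ccl4 and 30 brighter than Ccl5 on the conditioned-medium array, so saturation could make these folds too small; this was not tested. Ccl3, known as MIP-1alpha and the neighbour of Ccl4 in the genome, was at 11.998 with conditioned medium and 10.85 in the control. Its 2.21-fold difference was the smallest of the 7, and its log2 difference of 1.15 also passed the 2-fold line by less than the SD between probe sets.

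Ccl9 and Ccl6, CCR1 ligands that myeloid cells make without stimulation, did not pass 2-fold. Ccl9 had nearly the same log2 intensity on both arrays, 11.09 with conditioned medium and 11.08 in the control. Ccl6 stood at 10.97 with conditioned medium and 11.28 in the control, a log2 difference of -0.30, within the SD between probe sets. Both were bright, above 98.7% of all probe sets or more on each array. With 1 array per condition, a difference of Ccl6 or Ccl9 smaller than that SD could not be told from 0. Exceeding that SD would not be a test either, because it leaves out the spread between cultures.

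Ccl24, known as eotaxin-2 and made by alternatively activated macrophages, was the only lower gene past 2-fold. Its log2 intensity was 3.74 with conditioned medium and 4.83 in the control, 2.14-fold lower as deposited. The value with conditioned medium lay under the filter level, and measured against that level Ccl24 was 1.66-fold lower and no longer past 2-fold. Its signal in the control exceeded 65.3% of all probe sets, so the gene was dim in both cultures.

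Ranked by difference, the chemokines fell into steps. Ccl4, Ccl7, Ccl5 and Ccl8, with log2 differences of 2.64, 2.53, 2.46 and 2.37, followed each other at gaps of 0.10, 0.08 and 0.08, under the SD between probe sets, so their order is not settled. A gap of 0.80 separated Ccl8 from Ccl2 (1.58), and Ccl12 (1.40) and Ccl3 (1.15) came next at gaps of 0.18 and 0.25. The widest gap, 1.13, lay between Ccl3 and Ccl9. The SD between probe sets is that of a single difference. A gap between genes combines the errors of both, so its spread is larger, and no gap was tested. Among all kept genes, 199 had a difference at least as high as that of Ccl4 (1.45%, Ccl4 included), 572 at least as high as that of Ccl2 (4.17%) and 974 at least as high as that of Ccl3 (7.10%). At the other end 761 kept genes (5.55%) were at least as low as Ccl24.

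**Figure D2:**
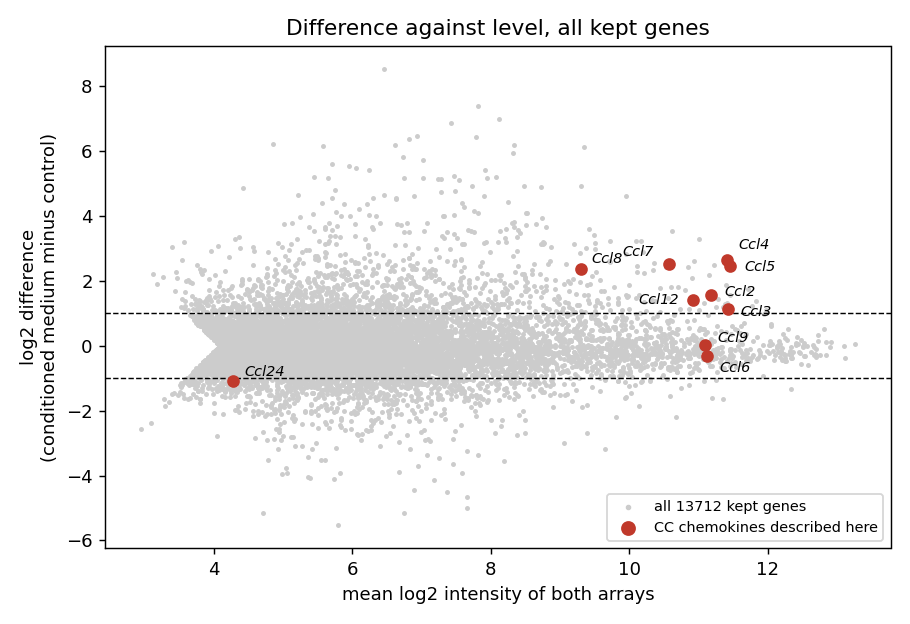
Log2 difference, conditioned medium minus control (y axis), against the mean log2 intensity of both arrays (x axis) for 13712 kept genes (grey) and the 10 CC chemokines (red); dashed lines mark 2-fold. Apart from Ccl24 the chemokines lie among the bright genes, 7 of them above the upper line; Ccl24 is near the dim end at -1.10.

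All of these genes lie on mouse chromosome 11 except Ccl24, which lies on chromosome 5, in RefSeq assembly GRCm38.p6. By gene order in that assembly, Ccl2, Ccl7, Ccl11, Ccl12, Ccl8 and Ccl1 follow each other. The 4 of them described above, all past 2-fold upward, had a median log2 difference of 1.98. The eosinophil attractant Ccl11, which sits between Ccl7 and Ccl12, had values of 4.43 with conditioned medium and 4.17 in the control, close to the filter level, and Ccl1 was under that level on both arrays (3.76 with conditioned medium and 3.91 in the control). The second run, Ccl5, Ccl9, Ccl6, Ccl3 and Ccl4, was mixed. Ccl9 and Ccl6, its middle genes, lay within 2-fold, and Ccl5, Ccl3 and Ccl4 around them were higher. Ccl26, the neighbour of Ccl24, was under the filter level on both arrays at 2.77.

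The promoters of a neighbouring pair that was at least 2-fold higher, Ccl8 and Ccl12, and of a neighbouring pair within 2-fold, Ccl9 and Ccl6, are shown so that they can be read against each other, with that of Ccl3, the smallest of the higher differences. Promoter sequence for 5 of the 10 genes was available here, from RefSeq (GRCm38.p6), as windows of 300 bases that begin 250 bases before the annotated start. Capitals mark matches to the TATA sequence TATAAA, the AP-1 motif TGANTCA, the NF-kB consensus and the core of the interferon-stimulated response element (ISRE), GAAANNGAA, searched on both strands. The sequences run 5′ to 3′ on the strand of the gene. Ccl8 is at chr11:82114935-82115234 (plus strand), Ccl12 at chr11:82101595-82101894 (plus strand), Ccl9 at chr11:83578587-83578886 (minus strand), Ccl6 at chr11:83593038-83593337 (minus strand) and Ccl3 at chr11:83649329-83649628 (minus strand).
Ccl8: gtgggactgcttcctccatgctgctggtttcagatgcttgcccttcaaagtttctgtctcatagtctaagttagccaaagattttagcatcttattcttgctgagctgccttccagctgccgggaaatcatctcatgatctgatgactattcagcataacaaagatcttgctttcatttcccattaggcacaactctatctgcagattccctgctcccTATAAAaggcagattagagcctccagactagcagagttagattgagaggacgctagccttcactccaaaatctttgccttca
Ccl12: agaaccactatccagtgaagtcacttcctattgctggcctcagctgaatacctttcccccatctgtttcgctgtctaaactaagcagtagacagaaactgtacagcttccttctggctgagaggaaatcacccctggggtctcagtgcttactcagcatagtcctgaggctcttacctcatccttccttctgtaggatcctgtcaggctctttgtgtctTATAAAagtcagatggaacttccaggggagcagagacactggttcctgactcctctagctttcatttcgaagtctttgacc
Ccl9: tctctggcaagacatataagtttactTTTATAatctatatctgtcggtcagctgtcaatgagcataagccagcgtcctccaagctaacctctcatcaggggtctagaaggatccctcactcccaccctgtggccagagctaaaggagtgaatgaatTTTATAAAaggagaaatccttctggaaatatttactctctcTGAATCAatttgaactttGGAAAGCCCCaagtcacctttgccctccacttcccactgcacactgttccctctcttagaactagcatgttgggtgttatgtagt
Ccl6: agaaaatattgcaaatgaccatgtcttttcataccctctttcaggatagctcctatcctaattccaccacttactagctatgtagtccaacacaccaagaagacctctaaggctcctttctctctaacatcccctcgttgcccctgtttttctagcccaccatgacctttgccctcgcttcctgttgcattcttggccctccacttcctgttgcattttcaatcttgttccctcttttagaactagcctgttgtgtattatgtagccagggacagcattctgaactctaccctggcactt
Ccl3: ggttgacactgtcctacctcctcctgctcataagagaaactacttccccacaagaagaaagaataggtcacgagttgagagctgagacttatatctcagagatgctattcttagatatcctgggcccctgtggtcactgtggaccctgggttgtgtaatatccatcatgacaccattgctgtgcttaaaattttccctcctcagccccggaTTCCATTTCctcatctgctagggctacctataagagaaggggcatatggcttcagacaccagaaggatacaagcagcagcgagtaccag

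Ccl8 and Ccl12 have a TATA sequence at nearly the same place, from -32 to -27 in Ccl8 and from -31 to -26 in Ccl12, counted from the annotated start. The longest run of bases shared by these promoters is 11, and that of Ccl9 and Ccl6 is 13, against 7 to 9 in the other 8 pairs among the 5 promoters. In Ccl9 the TATA sequence matched at 3 places, of which a forward and a reverse match overlap between -94 and -87, the AP-1 motif matched from -53 to -47, and the NF-kB consensus matched on the opposite strand from -35 to -26. The ISRE core matched in Ccl3 alone, on the opposite strand from -39 to -31. Ccl6 had no match to any motif searched, and the GAS motif (TTCNNNGAA), a site type of STAT proteins, was in 0 of the 5 windows. Among all 32851 promoter windows of the same length, 13.6% held the TATA sequence, 7.81% the AP-1 motif, 8.46% the NF-kB consensus, 8.56% the ISRE core and 8.30% the GAS motif. A match here is a run of letters and not a site known to be bound, and a missing match concerns only these 300 bases.

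The remaining CC chemokines were mixed in direction. Of 13 listed, 9 had a probe set with a single symbol and 7 were kept, and their median log2 difference was -0.42. The 2-fold line was passed upward by 2 and downward by 2. Ccl17 was at 3.85 with conditioned medium and 5.67 in the control, and Ccl22 was at 3.65 with conditioned medium and 5.39 in the control; both encode ligands of CCR4, a receptor of T helper and regulatory T cells. Against the filter level they were 2.96-fold and 2.45-fold lower. Ccl20, the ligand of CCR6, stood at 4.92 with conditioned medium and 3.72 in the control, and Ccl27a, a skin chemokine gene, at 4.85 with conditioned medium and 3.31 in the control. Against the filter level their log2 differences were 0.82 and 0.75, under 2-fold. The higher calls in this list thus rest on dim control values, unlike those of the 7 inflammatory chemokines.

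Among Ccr1, Ccr2 and Ccr3, which encode receptors of these chemokines, Ccr2 alone passed 2-fold, and it was lower. Ccr2, the receptor of Ccl2, Ccl7 and Ccl12, had a log2 intensity of 6.90 with conditioned medium and 9.38 in the control, 5.59-fold lower. Its ligands were higher in that same culture. Ccrl2, which encodes an atypical receptor that binds chemerin, was at 10.54 with conditioned medium and 6.77 in the control, 13.6-fold higher. Ccr1, a receptor of Ccl3, Ccl5, Ccl6 and Ccl9, stood at 8.76 with conditioned medium and 7.88 in the control, a log2 difference of 0.88 that stayed under 2-fold. Ccr3, the receptor of Ccl24, was at 5.12 with conditioned medium and 5.37 in the control. Ackr4, an atypical receptor of lymphoid chemokines, had a log2 difference of -0.77 that shrank to -0.01 against the filter level, where Ccr7 (-0.31), the receptor of Ccl19 and Ccl21, was the second lowest kept receptor. In all, 7 of 14 measured receptors were kept; Ccrl2 and Ccr2 alone passed 2-fold, and the median log2 difference was -0.25.

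Genes of pathways known to induce CC chemokines in myeloid cells were mostly higher on the conditioned-medium array, which is given beside the chemokines without a test of any link. The 10 kept NF-kB subunits and inducing cytokines had a median log2 difference of 1.97, and 8 of them passed 2-fold upward and 0 downward. The interleukin-1 genes Il1a (13.6-fold) and Il1b (8.88-fold) were highest, and the NF-kB subunit genes Relb (log2 difference -0.17) and Nfkb2 (0.69) lowest. Interferon signalling genes had a median of 1.77, and 6 of 8 kept passed 2-fold upward and 0 downward. Ifnb1, the interferon beta gene, was at 10.73 with conditioned medium and 2.19 in the control, a log2 difference of 6.63 against the filter level, and the transcription factor gene Irf7 at 11.19 with conditioned medium and 7.78 in the control. Irf3 (log2 difference 0.25) and the receptor gene Ifnar1 (0.94) were lowest in that list, and Ifng was under the filter level on both arrays.

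Genes of alternative activation, the setting in which macrophages make Ccl24, Ccl17 and Ccl22, went both ways. The 9 kept genes had a median log2 difference of -1.74, with 5 past 2-fold downward and 2 upward. Ccl17 and Ccl22 are 2 of the 5, and the median is the value of Ccl22 itself. That median is therefore not separate from the chemokines. Pparg (-2.19) was also lower, while Stat6 (-0.27) and Il4ra (0.71) lay within 2-fold. Chil3, a chitinase-like protein gene, was 7.92-fold lower and Mrc1, the mannose receptor gene, 6.69-fold lower. Arg1, the arginase gene (6.47-fold), and the transcription factor gene Irf4 (3.55-fold) were higher, so the list did not go one way. Among 6 kept genes of RNA-binding proteins that act on cytokine and chemokine mRNA, 1 passed 2-fold. This was Zfp36, which encodes tristetraprolin, a protein that promotes decay of such mRNA, at 8.40 with conditioned medium and 7.17 in the control (2.34-fold higher). Elavl1 (log2 difference 0.66) came next, and Zfp36l2 (-0.93, but -0.50 against the filter level) and Hnrnpd (-0.15) were lowest.

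**Figure D3:**
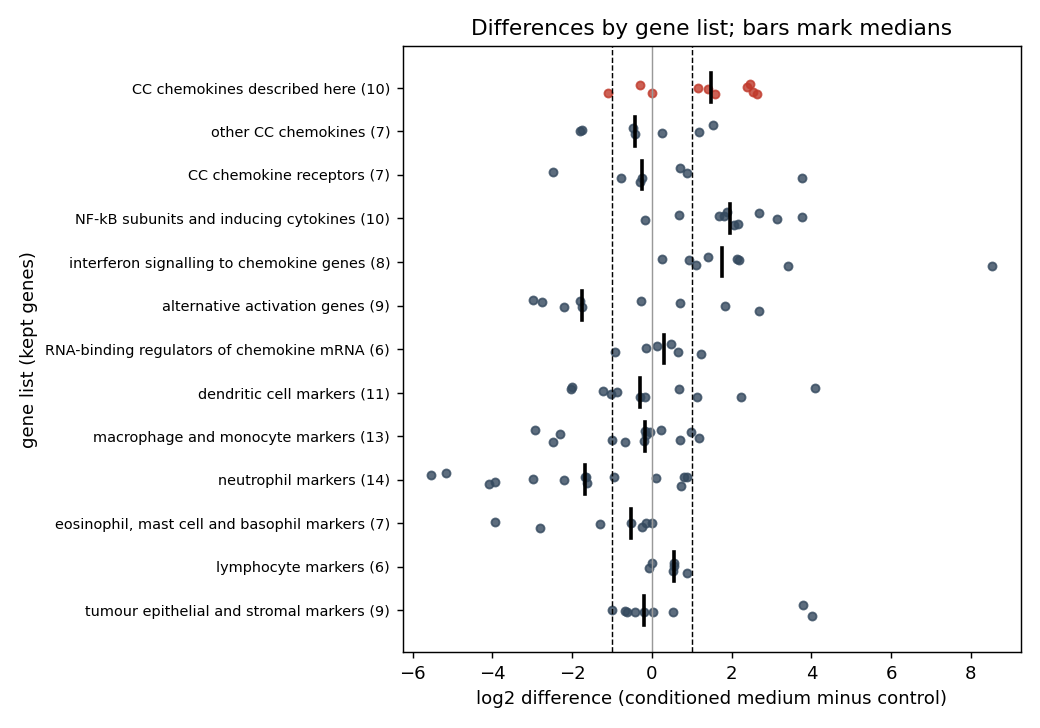
Log2 differences, conditioned medium minus control (x axis), of the kept genes of each list (rows, number of genes in brackets); points are genes, black bars are medians and dashed lines mark 2-fold. The 10 CC chemokines (red) have a median of 1.49, near the NF-kB (1.97) and interferon signalling (1.77) lists. The medians of the neutrophil (-1.67) and alternative activation (-1.74) lists lie on the lower side. The alternative activation median is the value of Ccl22, which that list contains along with Ccl17.

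Both cultures contained signal of several cell types, and in bulk RNA fewer cells of a type and less RNA per cell cannot be told apart. Of the dendritic cell markers 11 of 12 measured were kept: Itgax, which encodes CD11c, was at 7.15 with conditioned medium and 8.18 in the control, and the class II gene H2-Ab1 at 11.30 with conditioned medium and 10.16 in the control. The defining marker Zbtb46 was under the filter level on both arrays, and Flt3 only with conditioned medium. The list had 3 genes past 2-fold upward, led by Cd86 (log2 difference 4.09) and Dpp4 (2.25), and 4 downward, led by Batf3 (-2.03) and Clec10a (-2.01); Flt3, among the 4, differed by -0.28 against the filter level. The median log2 difference of its kept genes was -0.31. Its summed level over all measured genes was 12.36 with conditioned medium and 11.75 in the control on the log2 scale. Such a sum, here and for the lists below, adds brightness of different probe sets and is weighted toward the brightest. It is not an amount of a cell type. Macrophage and monocyte markers, cells that make most of these chemokines, had summed levels of 14.50 with conditioned medium and 14.28 in the control. Their median log2 difference was -0.18, and 1 of 13 passed 2-fold upward and 3 downward. Ly6c2 (1.18) and Fcgr1 (0.98) were highest and Csf1r (-2.93) and Ccr2 (-2.48) lowest.

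Neutrophil markers summed to 11.71 with conditioned medium and 13.39 in the control, and 0 of 14 passed 2-fold upward and 9 downward, from Camp (-5.54, but -4.47 against the filter level) and Ngp (-5.16) up to Cebpe (0.80) and Csf3r (0.89). Eosinophil, mast cell and basophil markers, whose cells can respond to Ccl24, summed to 8.77 with conditioned medium and 10.39 in the control; 3 of 7 kept passed 2-fold downward and 0 upward, led by Prg2 (-3.94) and Cpa3 (-2.81, but -2.42 against the filter level), and Fcer1a, the third, differed by -0.29 against that level, while Siglecf (0.00) and Gata2 (-0.15) were highest. Lymphocyte markers summed to 7.77 with conditioned medium and 7.59 in the control, and 0 of 6 kept passed 2-fold in either direction, from Cd3d (-0.06) and Pax5 (0.00) to Prf1 (0.56) and Cd4 (0.87, but 0.09 against the filter level). Tumour epithelial and stromal markers, a check because stromal and tumour cells also make Ccl2 and Ccl7, summed to 12.02 with conditioned medium and 12.12 in the control. Of 9 kept, Dcn (4.01, but 3.88 against the filter level) and Cdh1 (3.79) passed 2-fold upward and 0 downward, with Acta2 (-0.99) and Col3a1 (-0.68) lowest. The epithelial markers of this list were mixed. Epcam, Krt18, Krt14, Cldn4 and Erbb3 were under the filter level on both arrays. Krt8, Krt7 and Cldn3 were above that level on both arrays and within 2-fold. The collagen gene Col1a2 was bright on both, at 10.88 with conditioned medium and 11.51 in the control. Siglecf (5.24087) and Pax5 (4.50643) had the identical deposited value on both arrays, and the reason was not tested. The part of these cell types in the chemokine differences was not tested.

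By brightness, the kept genes whose pair of values lay nearest to that of Ccl4 over these 2 arrays were Ccl5 at a Euclidean distance of 0.14 log2 units, AW112010 at 0.30 and Psmb10, an immunoproteasome subunit gene, at 0.50. Nearest to Ccl24 were Lrrc56 at 0.02, Diaph3 at 0.04 and Speer4c at 0.05. These distances compare raw brightness of different probe sets, so they describe similar signals and not similar amounts of RNA, and many genes have values close to those of a dim gene such as Ccl24.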

How the data were processed

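RNA from 2 cultures was measured with 1 array each. Per the labels' protocols, Trizol was used for extraction and the cRNA carried biotin. Affymetrix Expression Console was used, per the submitters' processing notes; its version, normalization and build were not given in the sources used here. Deposited by the authors was 1 value per probe set and array, and it is taken as log2 intensity from the range of the values; log base and centring are unstated. Sorted values of both arrays differed by at most 0.28, so a shift of most genes one way would not be seen. The number of arrays limits the precision.

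Of 41345 probe sets, 23521 had 1 symbol in the platform annotation, 1814 several (left unnamed) and 16010 were not in it. A gene took its probe set with the highest mean. All 10 chemokine symbols matched RefSeq gene identifiers (GRCm38.p6). Counts used a fixed fold with no test, and the counting was tested on simulated data. Probe-set SD stood in for replicate spread when alternatives were compared.

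The members and gene lists were chosen with earlier results of these data known. Named genes were all members, the 2 highest and 2 lowest kept genes of each of 12 lists, other CC chemokines and receptors past 2-fold, and the 3 genes nearest to the highest and lowest member. Promoters were to be shown for the 2 highest and 2 lowest members, of which only Ccl6 was in the table. The other promoters, the motifs, Ccl1, Ccl11, Ccl26, Ccr3, Ccr7, Fcer1a, Itgax, H2-Ab1, Zbtb46, Flt3, Ifng, Epcam, Krt18 and Col1a2 were chosen after values were seen. So were Pparg, Stat6, Il4ra, Krt7, Krt8, Krt14, Cldn3, Cldn4 and Erbb3. Alternatives were quantile normalization, subtraction of a lowess curve (fraction 0.3, 3 iterations), centring, the mean of probe sets, other filters, a floor at the filter level, and other fold thresholds. Python 3.11.15, numpy 2.4.6, pandas 2.3.3, statsmodels 0.14.6 and matplotlib 3.10.9 were used. A listed receptor gene is not reported here.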

Additional observations from a re-analysis of the deposited data

How the results depend on the processing

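The count of 7 inflammatory chemokines at least 2-fold higher did not move under quantile normalization, lowess subtraction, centring or a 1.5-fold threshold. It was 4 at 3-fold and 4 at 4-fold. The mean of probe sets, the filters and the floor also left it at 7, but they could not have changed it. Each chemokine had 1 probe set, and the 7 lay above every filter level on both arrays. The count of 1 gene at least 2-fold lower, Ccl24, became 0 with the filter at the 75th percentile, which Ccl24 did not pass, 0 with low values set to the filter level, 0 at 3-fold and 0 at 4-fold. The median log2 difference ranged over 1.49 to 1.65, and 0 of the 10 genes changed sign under any alternative that gave it a value. Ccl3, the smallest of the higher differences, ranged over 1.15 to 1.31, and Ccl24 over -1.10 to -0.73. The share of kept genes at least 2-fold higher was 13.6% with the filter at the 75th percentile, where 7 of the 9 remaining chemokines passed. No paired analysis was possible because each condition had 1 array. Signal near background limits Ccl24, and brightness near the top of the array may limit Ccl4 and Ccl5.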

Other observations

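The Ccl19, Ccl21 and Ccl27 families of lymphoid and skin chemokines also had probe sets with several symbols, which no comparison above used. Probe sets that carry Ccl19, a CCR7 ligand, among their symbols numbered 13, with log2 differences (conditioned medium minus control) from -0.13 to 0.64. Those of the Ccl21 genes, also CCR7 ligands, numbered 9, with differences from -0.53 to -0.40. For the Ccl27 genes there were 11, from -0.73 to 0.26, whereas the single-symbol probe set of Ccl27a differed by 1.53 from a dim control value. In these 3 families 0 probe sets with several symbols passed 2-fold in either direction. Several hold identical values and so are not separate measurements.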
